A study of Danio rerio with 6 samples.

Results

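The transcripts of 10 genes that sense or build membrane phospholipid were followed in zebrafish liver. Of these, adipor1a, adipor1b, adipor2, paqr3a and paqr3b belong to the progestin and adipoQ receptor (PAQR) family. The other members, pcyt1aa, chpt1, pemt, lpcat3 and mboat7, encode enzymes of phosphatidylcholine synthesis or of acyl chain exchange. The genes were taken by symbol from a count table that names 30954 genes. All 10 were in it, and all 10 were among the 12889 genes that passed the filter on low counts. The members were selected on gene function and on measured values, namely the log2 fold changes and calls of mutant against WT livers in these libraries, among them the call of paqr3b. The members' values in that comparison are therefore a description, also where the fit over all genes is quoted, and support nothing.

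RNA sequencing was done on total RNA from liver, in 3 libraries from zebrafish whose scd gene had been knocked out with CRISPR-Cas9 (mutant) and 3 libraries from wild-type zebrafish (WT). Both groups lived in water at 28 °C. The scd gene encodes stearoyl-CoA desaturase, which turns saturated into monounsaturated fatty acyl-CoA. The comparison thus asks what the liver expresses when that gene is knocked out. The counts do not measure the enzyme itself. The sources used here do not give the edited allele, the strain, sex, age or feeding of the fish, or whether a library held 1 fish or a pool. The p-values thus reflect the spread among these 6 libraries alone, and part of it may be technical.

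PAQR proteins are receptors and sensors that cross the membrane several times. In human cells AdipoR2, and in Caenorhabditis elegans its relative PAQR-2, keep membranes fluid when saturated fatty acids are abundant. Mammalian PAQR3 sits in the Golgi membrane, where it binds the kinase RAF and the SCAP-SREBP complex that controls sterol synthesis. Phosphatidylcholine, the main phospholipid of liver membranes and secreted lipoproteins, is made from choline by choline kinase, a cytidyl transferase and a cholinephosphotransferase, or in liver by methylation of phosphatidylethanolamine. Acyltransferases then exchange its fatty acids after synthesis.

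The libraries held between 22525340 and 25852954 counts on named genes. Levels are counts per 1e6 counts (CPM), with library sizes scaled by TMM, the trimmed mean of M-values. The targeted transcript, scd, stood at 691.5, 110.3 and 56.6 CPM in mutant replicates 1 to 3, against 30.3, 18.1 and 429.9 CPM in WT replicates 1 to 3. Its level does not check the labels, since an edit that shifts the reading frame need not remove the transcript. All 8 hepatocyte markers were detected, with a summed level of 30640 to 69070 CPM in mutant and 50830 to 60020 CPM in WT libraries. Mutant replicate 3 stood apart. Vitellogenin, the yolk precursor of the female liver, took 0.0433% of its counts and 44.1% to 57.3% in the other libraries, and its TMM factor was 2.95 against 0.632 to 1.07 elsewhere. All 8 erythrocyte markers averaged higher in mutant libraries, and their sum was 299, 214.1 and 2284 CPM in mutant replicates 1 to 3 and 229.2 to 370.4 CPM in the WT libraries. The oocyte markers had a sum of 361.1 CPM in mutant replicate 1 and of 221.5 and 275.2 CPM in WT replicates 1 and 2, against at most 2.974 CPM elsewhere. The WT libraries also differed in exocrine pancreas markers, which summed to 211.4, 2815 and 2502 CPM in WT replicates 1 to 3. In the mutant libraries the pancreas markers summed to 495.2 to 762.6 CPM. Where leaving out mutant replicate 3 moved a log2 fold change clearly, that value is given too.

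The clearest difference among the members was between the copies of the PAQR3 gene. The transcript of paqr3b was several times more abundant in mutant than in WT livers, and that of paqr3a was not. The level of paqr3b was 3.36, 5.09 and 5.37 CPM in mutant replicates 1 to 3, against 0.479, 0.680 and 0.673 CPM in WT replicates 1 to 3. Every mutant library lay above every WT library. These levels rest on 55, 124 and 377 counts in the mutant libraries and on 10, 13 and 12 counts in the WT libraries. The group means were 4.61 ± 1.09 CPM in mutant and 0.611 ± 0.114 CPM in WT livers (SD, n = 3 each), a ratio of 7.54. In the quasi-likelihood fit of edgeR over all genes the log2 fold change, mutant over WT, was 2.91 with a standard error of 0.39, and the adjusted p of 0.0440 lay just under the threshold of 0.05. In bulk liver, more or fewer cells of a type and more or less RNA per cell cannot be told apart.

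The size of the paqr3b difference moved little when any 1 library was left out, with log2 fold changes from 2.74 to 3.07. Its call was more fragile. The adjusted p was 0.186 when mutant replicate 2 was left out, 0.0727 for mutant replicate 3 and 0.125, 0.177 and 0.119 for WT replicates 1 to 3, so the call was lost. It was kept when mutant replicate 1 was left out (0.0397, all by edgeR). The share of all genes called was 0.241% in the 6 libraries. It was 0.55%, 0.0147% and 0.161% with mutant replicates 1 to 3 left out in turn, and 0.0217%, 0.0287% and 0.0361% with WT replicates 1 to 3 left out in turn. On the scale of total counts, paqr3b had a log2 fold change of 4.01, where the median of all genes itself shifted to 0.97. With the oocyte markers as a covariate its log2 fold change was 2.71 (edgeR, adjusted p = 0.0510). The part of the erythrocyte markers in the difference was not tested.

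The other copy, paqr3a, had 3.0, 3.04 and 3.39 CPM in mutant replicates 1 to 3, against 3.83, 2.88 and 4.71 CPM in WT replicates 1 to 3. The groups overlapped, with means of 3.14 ± 0.215 CPM in mutant and 3.81 ± 0.919 CPM in WT livers (SD, n = 3 each). The log2 fold change was -0.28 ± 0.31 (SE). With total counts it was 0.73, still below the shift of all genes on that scale.

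A share within a library does not move with the scaling between libraries. Of the summed counts of both copies, paqr3b made up 52.9%, 62.6% and 61.3% in mutant replicates 1 to 3 and 11.1%, 19.1% and 12.5% in WT replicates 1 to 3. The shares of the mutant libraries lay far above those of the WT libraries. The lowest mutant share had an exact (Clopper-Pearson) 95% binomial interval of 42.8% to 62.8%, and the highest WT share one of 10.6% to 30.5%. These intervals cover counting error only. The means were 58.9% ± 5.28 in mutant and 14.2% ± 4.28 in WT livers (SD, n = 3 each), a difference of 44.7 percentage points, and it ranged from 42.8 to 47.7 points with any 1 library left out. The sources used here do not say how reads common to both copies were counted, so the shares are uncertain to that extent.

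**Figure D1:**
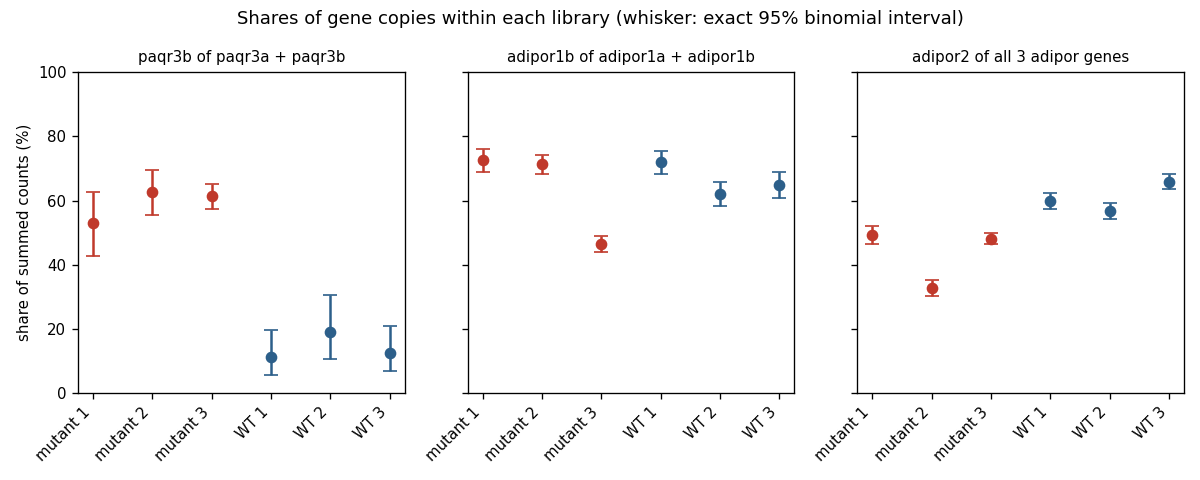
Share (%) of one gene copy in the summed counts of its copies, by library, with mutant libraries in red and WT libraries in blue; whiskers are exact 95% binomial intervals. The paqr3b share was 52.9% to 62.6% in mutant and 11.1% to 19.1% in WT libraries, the adipor1b shares overlapped, and the adipor2 share was 32.6% to 49.1% in mutant and 56.7% to 65.9% in WT libraries.

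Among the adiponectin receptor genes, adipor2 was less abundant in the mutant libraries, while both copies of adipor1 overlapped between the groups. The level of adipor2 was 37.6, 19.6 and 22 CPM in mutant replicates 1 to 3, against 45.4, 43.4 and 60.2 CPM in WT replicates 1 to 3. The groups did not overlap, but mutant replicate 1 lay near the lower WT libraries. Means were 26.4 ± 9.80 CPM in mutant and 49.7 ± 9.17 CPM in WT livers (SD, n = 3 each). The log2 fold change was -0.91 ± 0.33 (SE), and adipor2 was not called (edgeR, adjusted p = 0.210). Without mutant replicate 3 it was -0.82. With total counts it was -0.11, where the median of all genes shifted to 0.97. Per 1e6 named counts, unscaled, the groups overlapped. The values were 23.8, 20.9 and 64.8 in mutant replicates 1 to 3 and 42.1, 32.8 and 43.2 in WT replicates 1 to 3. Per 1e6 named counts outside vitellogenin the groups did not overlap. The values were 55.7, 48.9 and 64.9 in mutant replicates 1 to 3 and 75.3, 66.9 and 86.1 in WT replicates 1 to 3. A long non-coding gene overlaps adipor2 in the RefSeq annotation of GRCz12tu, another build than that of the counts, so a part of its counts could belong to that gene.

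As a share of the counts of all 3 adiponectin receptor genes, a quantity chosen after its values were seen, adipor2 made up 49.1%, 32.6% and 48.0% in mutant replicates 1 to 3. It made up 59.8%, 56.7% and 65.9% in WT replicates 1 to 3. No mutant share reached a WT share. The means were 43.3% ± 9.21 in mutant and 60.8% ± 4.65 in WT livers (SD, n = 3 each), and the difference of -17.5 percentage points ranged from -20.5 to -12.2 with any 1 library left out.

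The copy adipor1a had 10.7, 11.6 and 12.7 CPM in mutant replicates 1 to 3, against 8.53, 12.6 and 10.9 CPM in WT replicates 1 to 3 (log2 fold change 0.13 ± 0.25, SE). The copy adipor1b had 28.3, 28.8 and 11 CPM in mutant replicates 1 to 3, against 22, 20.6 and 20.3 CPM in WT replicates 1 to 3 (0.11 ± 0.38). Mutant replicates 1 and 2 thus lay above all WT libraries for adipor1b, and mutant replicate 3 below them. Without mutant replicate 3 the log2 fold change of adipor1b was 0.43 and was not called (edgeR, adjusted p = 0.328). The share of adipor1b in the counts of both adipor1 copies was 72.5%, 71.3% and 46.4% in mutant replicates 1 to 3, against 72.1%, 62.1% and 64.9% in WT replicates 1 to 3. The difference of -2.95 percentage points turned to 5.56 without mutant replicate 3.

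**Figure D2:**
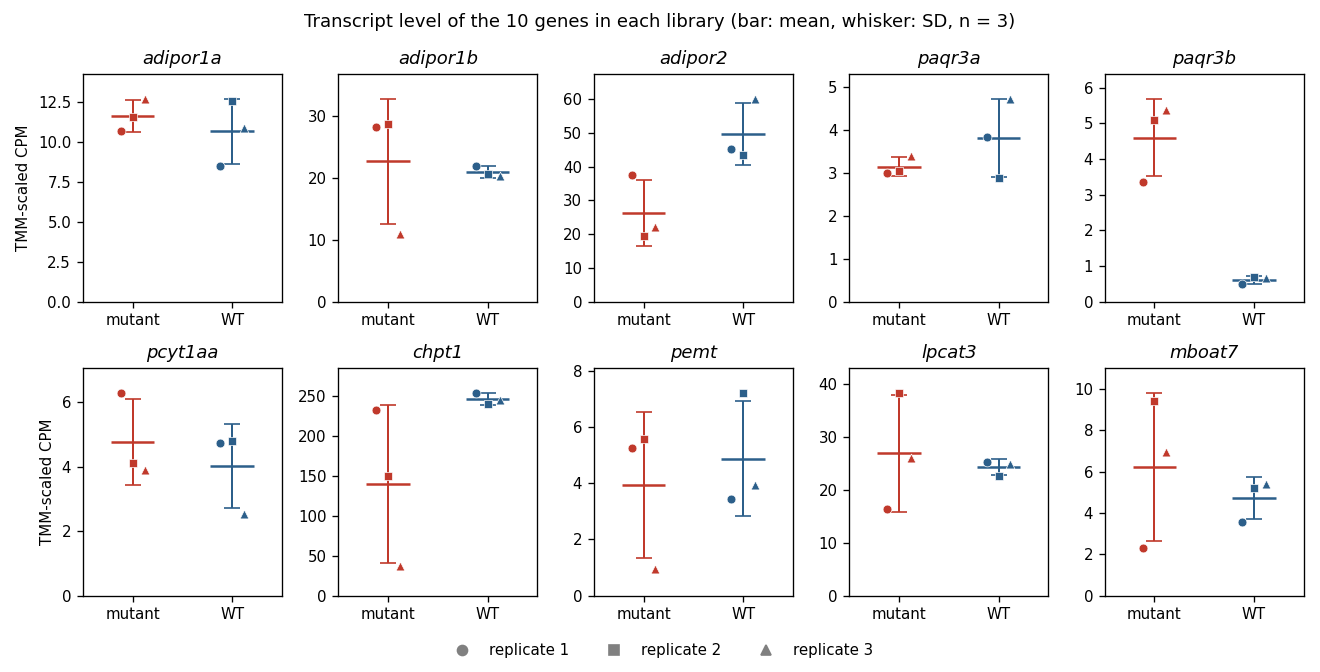
TMM-scaled level (CPM) of the 10 genes in each library, with mutant libraries left and WT libraries right in each panel; horizontal bars are means and whiskers SD (n = 3). The groups are apart for paqr3b, adipor2 and chpt1, and the low mutant values of adipor1b, pemt and chpt1 are those of mutant replicate 3.

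Of the genes that make phosphatidylcholine, chpt1 lay below WT in the mutant libraries, and pcyt1aa and pemt overlapped between the groups. The enzyme encoded by chpt1, cholinephosphotransferase, catalyses the last step from choline. Its transcript stood at 232.8, 150 and 36.5 CPM in mutant replicates 1 to 3, against 254.2, 239.7 and 244.7 CPM in WT replicates 1 to 3. The WT values lay close together and the mutant values were spread widely, with mutant replicate 1 just below the WT libraries and mutant replicate 3 far below. Means were 139.8 ± 98.6 CPM in mutant and 246.2 ± 7.38 CPM in WT livers (SD, n = 3 each), with a log2 fold change of -0.82 ± 0.61 (SE, edgeR adjusted p = 0.498). Leaving out mutant replicate 3 gave -0.38, and leaving out mutant replicate 1 gave -1.42. Per 1e6 named counts, unscaled, the groups were also apart, at 147.2, 159.9 and 107.7 in mutant replicates 1 to 3 and 235.5, 180.9 and 175.7 in WT replicates 1 to 3. Per 1e6 named counts outside vitellogenin they overlapped, at 344.5, 374.3 and 107.8 in mutant replicates 1 to 3 and 421.3, 369.2 and 350 in WT replicates 1 to 3.

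The gene pcyt1aa, which encodes a copy of the cytidyl transferase of the regulated step of the choline route, had 6.30, 4.11 and 3.91 CPM in mutant replicates 1 to 3, against 4.74, 4.81 and 2.52 CPM in WT replicates 1 to 3. Its log2 fold change was 0.24 ± 0.37 (SE). Another copy, pcyt1bb, is not a member but was more abundant, at 95.9 CPM on average in mutant and 238.2 CPM in WT livers (values below). The methyltransferase gene pemt had 5.26, 5.59 and 0.954 CPM in mutant replicates 1 to 3, against 3.45, 7.22 and 3.93 CPM in WT replicates 1 to 3. The log2 fold change of pemt was -0.32 ± 0.65 (SE) in all libraries. Its direction turned when either the lowest library, mutant replicate 3, or the highest, WT replicate 2, was left out (0.14 and 0.08).

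The remodelling genes lpcat3 and mboat7 showed no common shift between the groups, but the mutant libraries varied more than the WT libraries. The acyltransferase of lpcat3 puts polyunsaturated chains into lysophosphatidylcholine, and that of mboat7 puts arachidonic acid into lysophosphatidylinositol. The level of lpcat3 was 16.3, 38.4 and 26 CPM in mutant replicates 1 to 3, against 25.3, 22.6 and 25 CPM in WT replicates 1 to 3 (log2 fold change 0.15 ± 0.34, SE). The level of mboat7 was 2.32, 9.41 and 6.95 CPM in mutant replicates 1 to 3, against 3.55, 5.23 and 5.39 CPM in WT replicates 1 to 3 (0.40 ± 0.50). In both genes mutant replicate 1 was the lowest of all libraries and mutant replicate 2 the highest. Without mutant replicate 2 the log2 fold changes were -0.21 for lpcat3 and -0.02 for mboat7.

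Over the 10 members, 1 gene was called higher in the mutant libraries and 0 lower, where edgeR called 0.241% of all genes tested (31 of 12889), 0.116% higher (15 genes) and 0.124% lower (16 genes). With total counts, 397 genes were higher and 75 lower, 3.66% of all genes, and paqr3b was again the 1 member called. Of the other fits, DESeq2 (8.46% of all genes) and edgeR without the filter (0.912%) called paqr3b, whereas limma-voom (0.217%), edgeR with the oocyte markers as a covariate (0.403%) and edgeR with the replicate number as a block (0.0155%) called 0 members. The edgeR fits with DESeq2 factors, upper-quartile factors or library sizes without vitellogenin, blood, oocyte and pancreas genes also called paqr3b. So did edgeR with a filter of 1 CPM in 3 libraries and the non-robust fit. The adjusted p of paqr3b was 0.0392 to 0.0467 in these edgeR fits, which called 31 to 38 genes over all genes. The count of members is that of paqr3b, which was known beforehand. At an unadjusted p under 0.05 there were 2 members, paqr3b and adipor2, beside 19.1% of all genes. For 3 members, paqr3b, adipor2 and chpt1, mutant and WT levels did not overlap, beside 27.8% of all genes, a share close to that background. The median log2 fold change of the members was 0.12, and that of all genes 0.04.

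**Figure D3:**
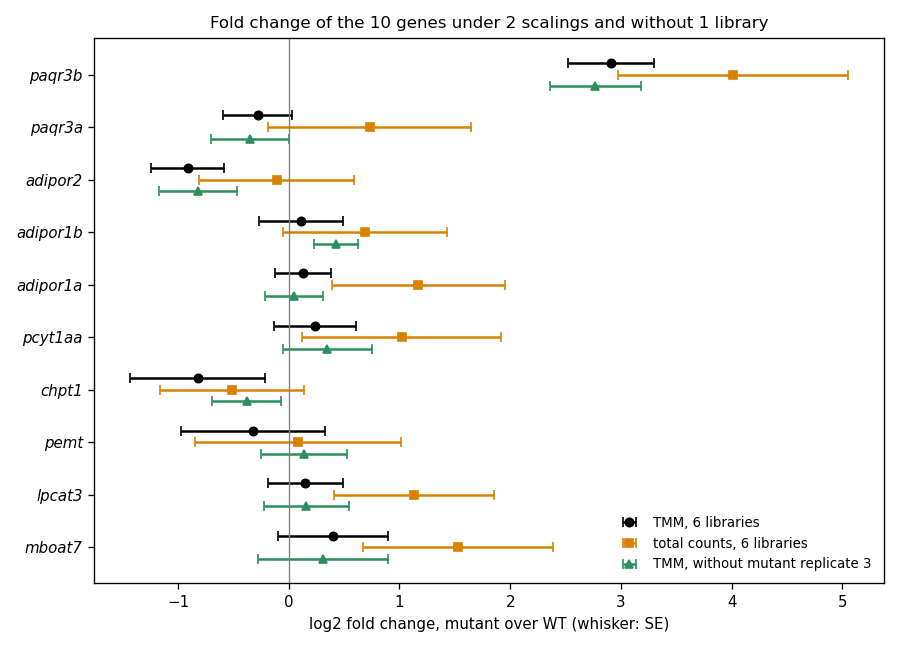
Log2 fold change, mutant over WT, of the 10 genes with standard errors, under TMM scaling in 6 libraries, with total counts in 6 libraries, and under TMM scaling without mutant replicate 3. The value of paqr3b was 2.91, 4.01 and 2.77 under these settings, and total counts moved the median of all genes to 0.97.

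The rest of the PAQR family and the pathways around it were followed in 8 further lists. They hold 141 genes, of which 135 were in the table and 108 passed the filter. Of the 108 tested genes, edgeR called 0, where it called 0.241% of all genes. An unadjusted p under 0.05 was reached by 11 genes above WT and 12 below it (10.8% and 8.29% of all genes). Mutant and WT levels did not overlap for 12 genes above WT and 14 below it, beside 27.8% of all genes in either direction. The Wald test of DESeq2 called 6 higher and 7 lower, where it called 8.46% of all genes. Limma-voom called 0, where it called 0.217% of all genes. With total counts edgeR called 3 higher and 1 lower, where it called 3.66% of all genes, 397 higher and 75 lower. On that scale the median log2 fold change was 0.97 over all genes and 0.76 to 2.28 in the 8 lists. Under TMM scaling the median of the 108 tested genes was 0.02, and that of all genes 0.04. Levels named next that were not called are given as values. The genes were named by a fixed rule unless stated.

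Of the other PAQR genes, 11 were in the table and 3 were tested. Of these 3, 2 lay above WT in every mutant library, and edgeR called 0 under TMM scaling. Mutant and WT levels did not overlap, in either direction, for 27.8% of all genes. The membrane progestin receptor gene paqr7a had 14.2, 36.2 and 9.08 CPM in mutant replicates 1 to 3, against 2.2, 2.3 and 6.28 CPM in WT replicates 1 to 3. Its log2 fold change was 2.46 ± 0.66 (SE, edgeR adjusted p = 0.132), and it was called by DESeq2 (adjusted p = 0.00584) and with total counts (edgeR, adjusted p = 0.0104). The value was 1.68 with mutant replicate 2, its highest library, left out, 2.80 with mutant replicate 3 left out and 3.12 with WT replicate 3 left out. The gene mmd, which encodes a PAQR protein named after monocyte to macrophage differentiation, had 7.58, 5.67 and 8.27 CPM in mutant replicates 1 to 3, against 3.21, 3.40 and 2.41 CPM in WT replicates 1 to 3 (1.25 ± 0.30, edgeR adjusted p = 0.110, DESeq2 adjusted p = 0.0153). The 7 macrophage markers summed to 77.1 to 340.8 CPM in mutant and 137.9 to 401.8 CPM in WT libraries, ranges that overlap. Singly they differed in direction, with 4 averaging higher in mutant libraries and the others lower. Their part in the difference of mmd was not tested. The remaining tested gene, mmd2a, which the rule did not name, averaged 1.33 ± 0.649 CPM in mutant and 2.03 ± 0.761 CPM in WT livers (SD, n = 3 each).

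In the adiponectin pathway list, 14 of 20 genes were tested and 0 called by edgeR, with 2 above and 3 below WT at an unadjusted p under 0.05. The genes of adiponectin itself, adipoqa and adipoqb, had 0 counts in every library, which, at a floor of 3 counts a library, allows up to 0.183 CPM in mutant replicate 1, the library of the smallest scaled size. The ceramidase gene acer2 had 4.28, 0.493 and 1.44 CPM in mutant replicates 1 to 3, against 13.2, 21.2 and 14.1 CPM in WT replicates 1 to 3. All mutant values lay below all WT values, with a log2 fold change of -2.99 ± 0.73 (SE, edgeR adjusted p = 0.118, DESeq2 adjusted p = 0.000654). Leaving out mutant replicate 1, the highest of the mutant libraries, moved it to -4.05. A subunit gene of the AMP-activated kinase, prkag1, had 10.3, 13.0 and 14.1 CPM in mutant replicates 1 to 3, against 6.85, 5.28 and 8.02 CPM in WT replicates 1 to 3 (0.89 ± 0.28, adjusted p = 0.165). The most abundant gene of the list, the kinase subunit prkab1b, averaged 30.1 ± 5.33 CPM in mutant and 24.4 ± 3.02 CPM in WT livers (SD, n = 3 each).

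In the list of PAQR3 partners, 14 of 15 genes were tested and edgeR called 0, where it called 0.241% of all genes. An unadjusted p under 0.05 was reached by 0 of them, beside 19.1% of all genes. DESeq2 (8.46% of all genes) and limma-voom (0.217%) also called 0. The median log2 fold change was 0.08. The SREBP escort gene scap had 4.16, 3.78 and 1.99 CPM in mutant replicates 1 to 3, against 5.42, 6.80 and 4.54 CPM in WT replicates 1 to 3 (-0.76 ± 0.37, SE, edgeR adjusted p = 0.307). The groups did not overlap for scap, beside 27.8% of all genes. The gene insig1, whose protein retains the SCAP-SREBP complex in the endoplasmic reticulum, had 406.8, 58.4 and 33.1 CPM in mutant replicates 1 to 3, against 59.3, 53.9 and 129.2 CPM in WT replicates 1 to 3. Its log2 fold change of 1.04 turned to -0.84 without mutant replicate 1 and was 1.5 with mutant replicate 3 left out. The regulatory subunit gene pik3r4, of the autophagy lipid kinase, had a log2 fold change of 0.89 ± 0.48 (SE), and of 0.57 with mutant replicate 3 left out.

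In the list of choline and ethanolamine phospholipid synthesis, 21 of 26 genes were tested and 0 called by edgeR, with 1 above and 3 below WT at an unadjusted p under 0.05. The choline kinase gene chkb had 22.4, 46.7 and 17.6 CPM in mutant replicates 1 to 3, against 158.0, 228.3 and 141.2 CPM in WT replicates 1 to 3. The highest mutant value was well under the lowest WT value. The means were 28.9 ± 15.6 CPM in mutant and 175.8 ± 46.2 CPM in WT livers (SD, n = 3 each), and the log2 fold change was -2.60 ± 0.47 (SE, edgeR adjusted p = 0.0711). It was called without the filter (edgeR, adjusted p = 0.0224) and by DESeq2 (adjusted p = 5.51e-06). Without any 1 library the value lay between -3.15 and -2.36.

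Some further genes of the list are given that were chosen after their values were seen, and they did not share a direction. The cytidyl transferase copy pcyt1bb had 107.5, 102.8 and 77.4 CPM in mutant replicates 1 to 3, against 262.6, 211.7 and 240.4 CPM in WT replicates 1 to 3 (log2 fold change -1.31 ± 0.32, SE, edgeR adjusted p = 0.111). The choline kinase gene chka had 34.2, 73.9 and 27.9 CPM in mutant replicates 1 to 3, against 50.2, 116.6 and 189.4 CPM in WT replicates 1 to 3, which overlap. Another cytidyl transferase copy, pcyt1ab, averaged 6.34 ± 5.36 CPM in mutant and 5.86 ± 1.38 CPM in WT livers (SD, n = 3 each). The choline and ethanolamine phosphotransferase gene cept1b averaged 5.39 ± 0.706 CPM in mutant and 4.29 ± 0.732 CPM in WT livers (SD, n = 3 each). The gene ptdss1a, named by the rule, encodes a synthase of phosphatidylserine and lay above WT. It had 21.1, 18.9 and 13.8 CPM in mutant replicates 1 to 3, against 7.52, 6.28 and 6.79 CPM in WT replicates 1 to 3 (1.38 ± 0.27, edgeR adjusted p = 0.0785, DESeq2 adjusted p = 0.00169). The most abundant gene of the list was ahcy, whose enzyme clears the by-product of methylation reactions. It had 3996, 1369 and 713.7 CPM in mutant replicates 1 to 3, against 3272, 3570 and 3824 CPM in WT replicates 1 to 3, so the groups overlapped. Its log2 fold change of -0.81 was -1.79 with mutant replicate 1 left out and -0.43 with mutant replicate 3 left out.

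Of the other acyl remodelling genes, 31 of 37 were tested and 0 called by edgeR, with 2 above and 5 below WT at an unadjusted p under 0.05 and a median log2 fold change of -0.23. The lysophospholipase gene pnpla7b had 11.5, 2.38 and 4.80 CPM in mutant replicates 1 to 3, against 25, 20.3 and 25.6 CPM in WT replicates 1 to 3 (-1.93 ± 0.54, SE, edgeR adjusted p = 0.140, DESeq2 adjusted p = 0.0126). The phosphodiesterase gene gdpd1 had 4.71, 4.64 and 8.71 CPM in mutant replicates 1 to 3, against 1.96, 1.93 and 2.75 CPM in WT replicates 1 to 3 (1.45 ± 0.37, edgeR adjusted p = 0.123, DESeq2 adjusted p = 0.0236). With mutant replicate 3 left out gdpd1 had 1.06, and with mutant replicate 1 left out pnpla7b had -2.74. Both genes were apart between the groups, in opposite directions, beside 27.8% of all genes that were apart in either direction. The most abundant gene, pla2g12b, a secreted phospholipase A2 relative that acts in lipoprotein secretion, averaged 267.8 ± 26.5 CPM in mutant and 294.6 ± 49.9 CPM in WT livers (SD, n = 3 each).

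Among genes of phosphatidylinositol and cardiolipin, 8 of 8 were tested and 0 called by edgeR, with 1 higher at an unadjusted p under 0.05. That gene, the phosphoinositide phosphatase inpp5e, had 1.71, 2.55 and 2.08 CPM in mutant replicates 1 to 3, against 0.815, 0.523 and 0.729 CPM in WT replicates 1 to 3. Its log2 fold change was 1.61 ± 0.42 (SE, edgeR adjusted p = 0.123, DESeq2 adjusted p = 0.0256). The gene ptpmt1, which encodes a phosphatase of cardiolipin synthesis, had a log2 fold change of 0.55 ± 0.28 (SE). The most abundant gene, cds2, which makes the CDP-diacylglycerol precursor, averaged 19.6 ± 11.9 CPM in mutant and 21.9 ± 14.2 CPM in WT livers (SD, n = 3 each).

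Among genes of phosphatidylcholine transfer and export, 9 of 10 were tested and 0 called by edgeR under TMM, with 1 above and 1 below WT at an unadjusted p under 0.05. The lower one was abca1a, which encodes an exporter of phospholipid and cholesterol to apolipoprotein A-I. It had 124.8, 39.3 and 13.0 CPM in mutant replicates 1 to 3, against 407.9, 358.5 and 296.1 CPM in WT replicates 1 to 3 (log2 fold change -2.59 ± 0.78, SE, edgeR adjusted p = 0.157). The groups were far apart, and abca1a was called lower with total counts (-2.44, edgeR adjusted p = 0.0164) and by DESeq2 (adjusted p = 0.00611). The value was -3.78 with mutant replicate 1 left out and -2.13 with mutant replicate 3 left out. The flippase subunit gene tmem30aa had a log2 fold change of 1.22 ± 0.45 (SE), and of 0.72 with mutant replicate 3, its highest library, left out. The median of the list was 0.01 in all libraries and -1.02 without mutant replicate 3.

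In the list of desaturases and membrane fluidity genes, 8 of 13 were tested and 0 called by edgeR, with 2 higher at an unadjusted p under 0.05. The sphingolipid desaturase gene degs1 had 42.5, 46.2 and 38.3 CPM in mutant replicates 1 to 3, against 30.5, 22.5 and 30.6 CPM in WT replicates 1 to 3 (log2 fold change 0.60 ± 0.25, SE, edgeR adjusted p = 0.252). The TLC domain gene tlcd3ba averaged 2.47 ± 0.431 CPM in mutant and 0.733 ± 0.247 CPM in WT livers (SD, n = 3 each). Its log2 fold change was 1.74 ± 0.44 (SE, edgeR adjusted p = 0.119, DESeq2 adjusted p = 0.0164). Both genes were higher in every mutant library than in any WT library. Groups were apart in this way, in either direction, for 27.8% of all genes. The polyunsaturated fatty acid desaturase gene fads2 had 5043, 1962 and 487.7 CPM in mutant replicates 1 to 3, against 1291, 1726 and 3231 CPM in WT replicates 1 to 3, with no separation. Its log2 fold change of 0.26 was -0.78 with mutant replicate 1 left out and 0.73 with mutant replicate 3 left out.

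**Figure D4:**
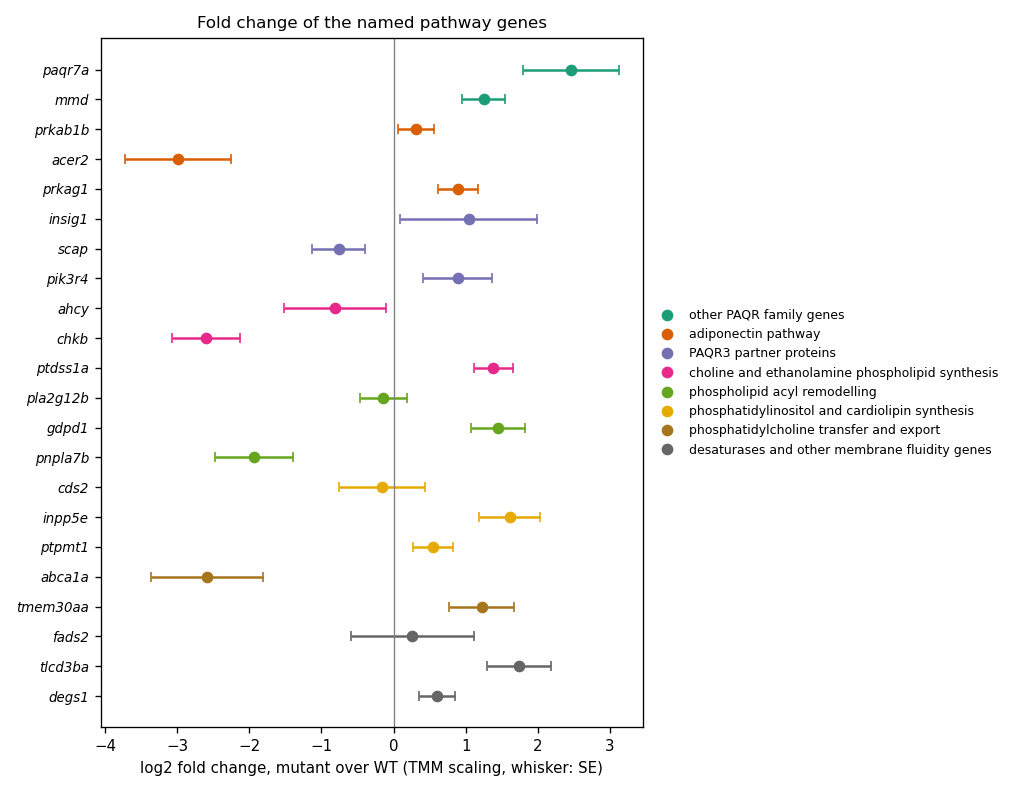
Log2 fold change, mutant over WT, with standard errors, of the 22 pathway genes named by the fixed rule, coloured by list. The values run from -2.99 for acer2 to 2.46 for paqr7a, and edgeR called 0 of these genes over all genes.

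Of the 5 genes outside the members whose level over the 6 libraries was most like that of paqr3b, 4 are given here, namely CABZ01077220.3, kdm8, adprhl2 and zgc:114174. Their Pearson's r of log2 CPM with paqr3b was 0.9946 to 0.9975. The libraries share their scaling and fall into 2 separated groups for these genes, so r describes mainly that separation. The gene zgc:114174 had 8.62, 12.4 and 12.9 CPM in mutant replicates 1 to 3, against 2.16, 3.24 and 3.37 CPM in WT replicates 1 to 3 (log2 fold change 1.95 ± 0.32, SE). Every mutant library lay above every WT library, where 27.8% of all genes were apart in either direction. The gene was not called under TMM scaling (edgeR, adjusted p = 0.0654). It was called with total counts (edgeR, adjusted p = 0.0184), without the filter (edgeR, adjusted p = 0.0252) and by DESeq2 (adjusted p = 3.81e-05). The other genes had log2 fold changes of 1.59 to 2.21 and adjusted p from 0.0711 to 0.10 by edgeR. DESeq2, which called 8.46% of all genes, called each of them (adjusted p from 0.000562 to 0.0106). In the WT libraries CABZ01077220.3 rests on 5 to 6 counts and kdm8 on 6 to 8 counts, which limits the precision of their values. The WT counts of adprhl2 were 34 to 37.

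**Figure D5:**
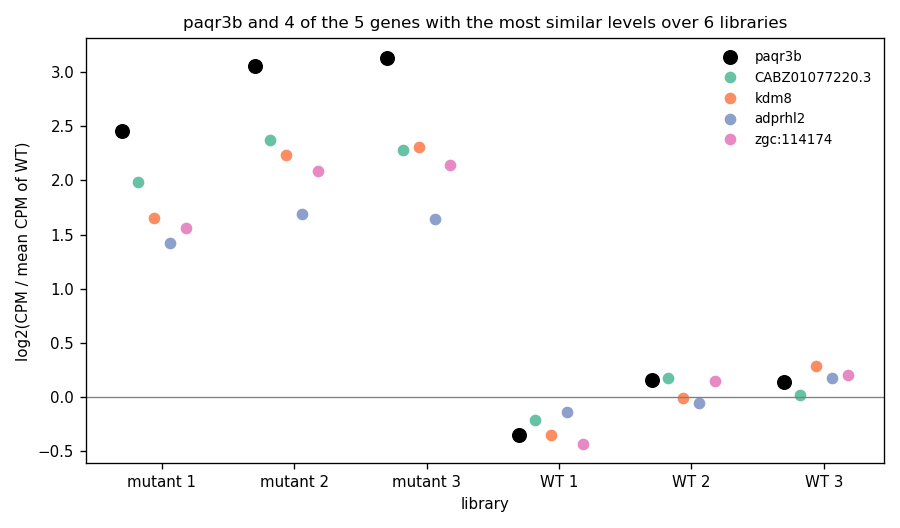
Level of paqr3b and of 4 of the 5 genes most like it in each library, as the log2 ratio of CPM to the mean of the WT libraries, with mutant libraries left. All 5 genes drawn lay higher in mutant replicate 1 than in any WT library and higher still in mutant replicates 2 and 3.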

How the data were processed

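The authors' deposited file is a single table of raw counts, whole numbers for each gene symbol with no normalization. The submitters' processing notes name Trimmomatic 0.36, STAR 2.7, featureCounts 1.5.2 and build GRCz11, and the sources used here give no strand or multi-mapping setting. Of 30955 rows, 1 without a gene name (0.568% to 1.02% of counts) was left out. The total was 22736924 to 26021730 counts per library. Mutant and WT were compared with the robust quasi-likelihood test of edgeR 4.0.16 (R 4.3.3) after filterByExpr and TMM scaling, with Benjamini-Hochberg adjustment over all 12889 genes and calls under 0.05. The standard error is the log2 fold change over the square root of F.

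The members and lists were chosen with earlier results of these data known. Named genes are the members, from each list any called gene, the most abundant one and the 2 with the lowest p, and the 5 most like paqr3b, of which 1 is not reported here. Others were chosen after their values were seen. Alternatives covered other scalings (DESeq2 factors, upper quartile, total counts, library sizes without vitellogenin, blood, oocyte and pancreas genes), 2 filters, a replicate block, an oocyte covariate, each library left out, a non-robust fit, DESeq2 1.42.0 and limma-voom (limma 3.58.1). In simulated data for this comparison (12401 genes, estimated dispersions), 23.7% of 4-fold, 76.1% of 8-fold and 90% of 64-fold changes were found, and 16 of 144 calls were false.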

Additional observations from a re-analysis of the deposited data

How the results depend on the processing

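Against 31 genes called over all genes, edgeR called 472 (total counts), 211 (no filter), 52 (oocyte covariate) and 2 (replicate block), DESeq2 called 1082, and leaving out each library gave 2 to 77. The 1 member called, paqr3b, became 0 with the replicate block (log2 fold change 2.90, adjusted p = 0.0755), with the oocyte covariate (2.71, 0.0510) and by limma-voom (2.91, 0.0656), and 0 to 1 with each library left out; its direction was kept under every alternative, and the cause was not tested. The sources used here do not say whether same-numbered libraries are paired. The correlations of their deviations from group means were 0.298, -0.211 and 0.320, and mutant replicate 1 correlated more with WT replicate 2 (0.412). So few libraries cannot decide whether they are paired. Of the pathway genes, 0 became 4 on total counts, 13 by DESeq2 and 1 if unfiltered, and 0 with each library left out.

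Some log2 fold changes turned sign. With total counts, paqr3a was 0.73, pemt 0.08, pla2g12b 0.74 and cds2 0.78; with the replicate block, adipor1b was 0.00 and fads2 -0.11; with the oocyte covariate, lpcat3 was -0.11 and mboat7 -0.18. With each library left out, adipor1a ranged from -0.03 to 0.25, adipor1b from -0.11 to 0.43, pcyt1aa from -0.03 to 0.38, lpcat3 from -0.21 to 0.39, mboat7 from -0.02 to 0.77, pemt from -0.69 to 0.14, insig1 from -0.84 to 1.55, cds2 from -0.78 to 0.46, fads2 from -0.78 to 0.73, and the adipor1b share from -7.5 to 5.56 points. Levels of paqr3b in WT rest on 10 to 13 counts a library, which limits the precision of its fold change.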

Other observations

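Some PAQR and remodelling genes had too few counts to be tested, and those named here were chosen after their values were seen. The membrane progestin receptor gene paqr5b had 0, 2 and 149 counts in mutant replicates 1 to 3, against 3, 1 and 10 counts in WT replicates 1 to 3. The related paqr6 had 6, 8 and 42 counts in mutant replicates 1 to 3, against 4, 2 and 0 counts in WT replicates 1 to 3. The lysophosphatidylcholine acyltransferase gene lpcat2 had 2, 11 and 58 counts in mutant replicates 1 to 3, against 2, 4 and 6 counts in WT replicates 1 to 3. The gene tlcd1, whose human relative acts on membrane fluidity, had 1, 12 and 39 counts in mutant replicates 1 to 3, against 1, 2 and 2 counts in WT replicates 1 to 3. In these genes the highest count was that of mutant replicate 3, the library almost without vitellogenin, whose TMM factor was 2.95. These counts are not scaled. On the TMM scale 3 counts are 0.0427 CPM in mutant replicate 3 and 0.123 to 0.183 CPM in the other libraries, so the counts overstate its difference from them.

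In the gene order of the RefSeq annotation of GRCz12tu, which is not the build of the counts, paqr3b lies between antxr2b and anxa3b. These neighbours had log2 fold changes of -2.16 ± 0.59 and 0.74 ± 0.85 (SE), antxr2b below WT and anxa3b overlapping it. The copy paqr3a lies between bmp2k and antxr2a, with -0.35 ± 0.47 and -0.20 ± 0.43. Of the 20 coding genes next to the members, 15 were tested and 0 were called by edgeR, beside 0.241% of all genes.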
